A study of Mus musculus with 12 samples.

Results

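The 4 libraries described here came from tbGFP-negative mouse embryonic stem cells after 6 h and after 24 h of sorbitol, 2 libraries at each time, out of 12 libraries in the study. They were chosen by their labels, and the 24 h libraries were set against the 6 h libraries to show which early changes faded, which persisted and which started late. The 2 tbGFP-negative libraries at 0 h gave the starting level. All cells were of the E14 mouse embryonic stem cell line and carried the reporter 2C::3xtbGFP, which marks cells that express genes of the 2-cell embryo, so the tbGFP-negative cells are those in which the sort found no reporter signal. They grew with LIF on gelatin, the inhibitors CHIR99021 and PD0325901 were given for expansion and left out at plating, and sorbitol, a sugar alcohol that raises the osmolarity of the medium, was given for 0, 6 or 24 h before sorting. The labels describe no cells kept as long without sorbitol, so sorbitol and time in culture cannot be told apart. The labels name 1 cell line, number the libraries of a group 1 and 2, and do not say whether these came from separate cultures, so p-values take in only how these samples vary, and that variation may be technical.

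Hyperosmotic medium draws water from cells. Cells first shrink and take up ions and amino acids, and later replace these with compatible osmolytes such as inositol, betaine, taurine and sorbitol itself, through transporters and enzymes that the transcription factor NFAT5 switches on. Osmotic shock is also known to engage stress kinases, p53 and the integrated stress response through ATF4, and embryonic stem cells hold active p53 together with a pluripotency network that LIF and other signals sustain.

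Levels are CPM, read counts relative to the library total, scaled with TMM factors and are compared between libraries only, never between genes. Log2 fold changes are from edgeR's quasi-likelihood test ± their standard error (SE), positive where the later time was higher, and adjusted p is by the Benjamini-Hochberg method over 16597 tested genes. Means are given ± SD with n = 2 libraries. A gene is said to have risen or fallen where its adjusted p was at or under 0.05. In bulk RNA, fewer cells of a type and less RNA per cell cannot be told apart. The files count reads per transcript, and many abundant genes had few counts: Actb was at 0.437 to 1.51 CPM on average at the 3 times. For some genes, most counts lay on transcripts that GENCODE types as retained intron, and this is said where such a gene is described, since its values need not follow the spliced mRNA.

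The tbGFP-negative libraries held 2306870 to 7900178 counts, and CPM on a log scale correlated between the 2 libraries of a group across genes with r = 0.94 at 0 h, 0.958 at 6 h and 0.964 at 24 h. Defining markers of embryonic stem cells were present: Pou5f1, Sox2, Nanog, Klf4, Esrrb, Tfcp2l1 and Zfp42 summed to 3460 to 3580 CPM at 0 h, 3109 to 3549 at 6 h and 4197 to 4346 at 24 h. The marker sums in this paragraph are CPM without TMM factors. TMM scaling would raise the sums at 6 h (factors 0.819 and 0.858) and lower those at 24 h (1.16 and 1.17). The stem cell sums therefore do not show a rise after 6 h. Sets of 4 to 6 defining markers summed to under 13 CPM in every tbGFP-negative library for each of primitive endoderm, trophectoderm, fibroblasts, germline and mesoderm with ectoderm, with Sox17, Postn and Sycp3 at 0 counts in all 6. This holds for those markers: of a longer primitive endoderm list, Lama1 was at 226 ± 6.69 CPM at 0 h, Col4a2 at 44.9 ± 2.01 and Cubn at 15.3 ± 3.09. The 7 markers of 2-cell-like cells summed to 13.4 and 31.1 CPM before sorbitol, to 47.4 and 36.1 after 6 h and to 768 and 694 after 24 h. Intron-retaining transcripts took 2.91% and 3.48% of counts at 0 h, 2.31% and 2.58% after 6 h and 4.44% and 4.51% after 24 h of sorbitol, so both 24 h libraries lay above and both 6 h libraries below the others. The part of this shift in the results was not tested.

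From 6 h to 24 h, 2699 genes rose and 3007 fell, 34.4% of the 16597 tested. These include genes of the p53 response, which fell, and genes of the 2-cell program, which rose. Genes of serine synthesis and some of tRNA charging fell below where they had started. Between 0 h and 6 h, 2456 genes rose and 1892 fell (26.2% of those tested), and between 0 h and 24 h 1594 rose (9.6%) and 1603 fell (9.66%), together 19.3%. The call of a rise or a fall depends on the scaling. TMM factors were 0.819 and 0.858 at 6 h and 1.16 and 1.17 at 24 h, so with library totals alone the median log2 fold change of all genes at 24 h against 6 h moved from 0.096 to 0.57, and 5088 genes were called higher and 1353 lower. Log2 fold changes here are with TMM factors, and for each gene list the counts with library totals alone follow. The shares over all tested genes to set beside a list were 14.8% higher and 11.4% lower by 6 h. From 6 h to 24 h they were 16.3% higher and 18.1% lower. When the tbGFP-positive libraries shared the estimate of spread, the common coefficient of variation was 45.6% instead of 18.2%, and 701 genes rose (3.62%) and 833 fell (4.3%), 7.91% of 19384. The directions of 1470 of these 1534 genes, 95.8%, were also called with the tbGFP-negative libraries alone.

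Many early changes turned back between 6 h and 24 h. Of the 2456 genes that rose by 6 h, 1592 (64.8%) fell again between 6 h and 24 h. Another 387 (15.8%) did not pass the test between 6 h and 24 h and remained above 0 h, and are called persisted. A further 75 (3.05%) rose again, and 402 (16.4%) were none of these, called unresolved. Of the 1892 genes that fell by 6 h, 1155 (61%) rose again, 311 (16.4%) persisted below 0 h, 93 (4.92%) fell further, and 333 (17.6%) were unresolved. Late changes, called at 24 h against both earlier times and not at 6 h, were a rise for 589 genes and a fall for 708. Among the 1592 genes that rose and fell again, 1171 did not differ from 0 h at 24 h by the test, 183 were still higher and 238 had gone below it. The share of early rises that reversed depends on the fit: it was 677 of 1473 with library totals alone and 316 of 625 with all 12 libraries. The counts for most gene lists given below were also smaller with all 12 libraries: 10 p53 targets, 8 ATF4 targets, 5 NRF2 targets and 3 ribosome biogenesis genes then fell after 6 h. Both contrasts share the 6 h libraries with opposite sign, so an error in a 6 h library adds to a reversal, and these counts are descriptions.

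**Figure D1:**
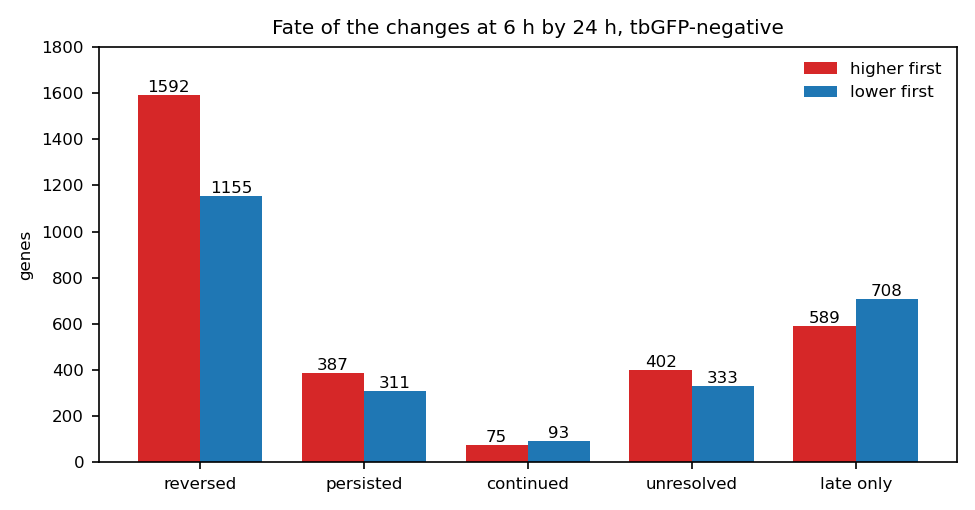
Number of genes (vertical axis) in each fate class of the tbGFP-negative cells, by the direction of the early change (or, for late only, of the late change). Reversed changes are the most frequent class in both directions, 1592 and 1155 genes.

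Intron-retaining transcripts were unevenly spread over these classes. They held over 50% of the counts for 14.8% of all tested genes, for 26.9% of the genes that fell early and rose again, for 5.09% of those that rose and fell again, and for 0.847% of the genes that fell late.

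Several genes for taking up or making osmolytes stayed high or rose further at 24 h, while an amino acid transporter that peaked early fell. Slc5a3, the sodium/myo-inositol cotransporter, was at 30.2 and 32 CPM (0 h), 399.8 and 358 CPM (6 h), and 331 and 330.4 CPM (24 h). Both times of sorbitol lay far above 0 h, the 24 h libraries just under those at 6 h, and the change from 6 h did not pass the test (-0.20 ± 0.11, adjusted p = 0.175). Aqp3, a channel for water and glycerol, was at 14.4 and 9.46 CPM (0 h), 72 and 79.5 CPM (6 h), and 76.5 and 66.5 CPM (24 h), a rise by 6 h (2.77 ± 0.21, adjusted p = 4.46e-12) with 24 h values that overlapped those at 6 h. Akr1b3, aldose reductase, which makes sorbitol from glucose, went from 34 ± 4.73 to 68.8 ± 6.59 and 95.4 ± 7.84 CPM and rose in both intervals (0.47 ± 0.16, adjusted p = 0.0182 from 6 h to 24 h). Intron-retaining transcripts held 92.5% to 94.7% of its counts, and over protein-coding transcripts alone the second rise did not pass (1.11, adjusted p = 0.124), nor did it without replicate 1 at 6 h (adjusted p = 0.149), or replicate 2 at 24 h (adjusted p = 0.153).

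Other osmolyte genes moved only after 6 h. Slc6a12, the betaine transporter, had no count in the 4 libraries at 0 h and 6 h and was at 4.18 and 7.27 CPM at 24 h, at least 17.9-fold above 6 h with a floor of 3 counts over the group. Slc6a6, the taurine transporter, rose from 453 ± 54.8 to 559 ± 15.7 CPM (0.30 ± 0.11, adjusted p = 0.0248), a call lost without replicate 1 at 6 h (adjusted p = 0.223), or replicate 1 at 24 h (adjusted p = 0.0747), or replicate 2 at 24 h (adjusted p = 0.138). Sord, sorbitol dehydrogenase, rose from 161 ± 7.33 to 214 ± 1.27 CPM and Hspa4l, an HSP110 chaperone known to respond to osmotic stress, from 7.94 ± 0.941 to 15 ± 1.46. The call of Hspa4l was lost without replicate 1 at 6 h (adjusted p = 0.189), or replicate 2 at 6 h (adjusted p = 0.0806), or replicate 1 at 24 h (adjusted p = 0.086), or replicate 2 at 24 h (adjusted p = 0.181). Nfat5 itself was near the floor of detection at 1.75 and 3.37 CPM (0 h), 4.66 and 1.16 CPM (6 h), and 2.09 and 3.5 CPM (24 h), with overlapping groups and all counts on intron-retaining transcripts.

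Amino acid and ion transport went the other way or back. Slc38a2, the SNAT2 transporter for neutral amino acids, was at 1104 and 1226 CPM (0 h), 4187 and 3959.5 CPM (6 h), and 1540.0 and 1551 CPM (24 h). The 6 h libraries stood highest and the 24 h libraries were still above 0 h (-1.40 ± 0.087, adjusted p = 2.54e-14 from 6 h to 24 h). Slc7a1, a transporter of cationic amino acids, fell in both intervals, from 617 ± 11.7 to 414 ± 15.8 and 215 ± 37.6 CPM. Slc12a2, the NKCC1 ion cotransporter, was at 206 ± 22.6 CPM at 6 h and 295 ± 0.0333 at 24 h (0.52 ± 0.11, adjusted p = 0.000463), a rise after an early fall at the threshold (adjusted p = 0.05). Of 16 tested members of the osmotic list, 7 rose and 3 fell from 6 h to 24 h (16.3% and 18.1% of all genes), with a median of 0.0064, and with library totals alone 7 higher and 2 lower, with a median of 0.48. For the osmotic list the rises numbered 2 with all 12 libraries or without replicate 2 at 24 h, 3 without replicate 1 at 6 h or replicate 1 at 24 h.

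**Figure D2:**
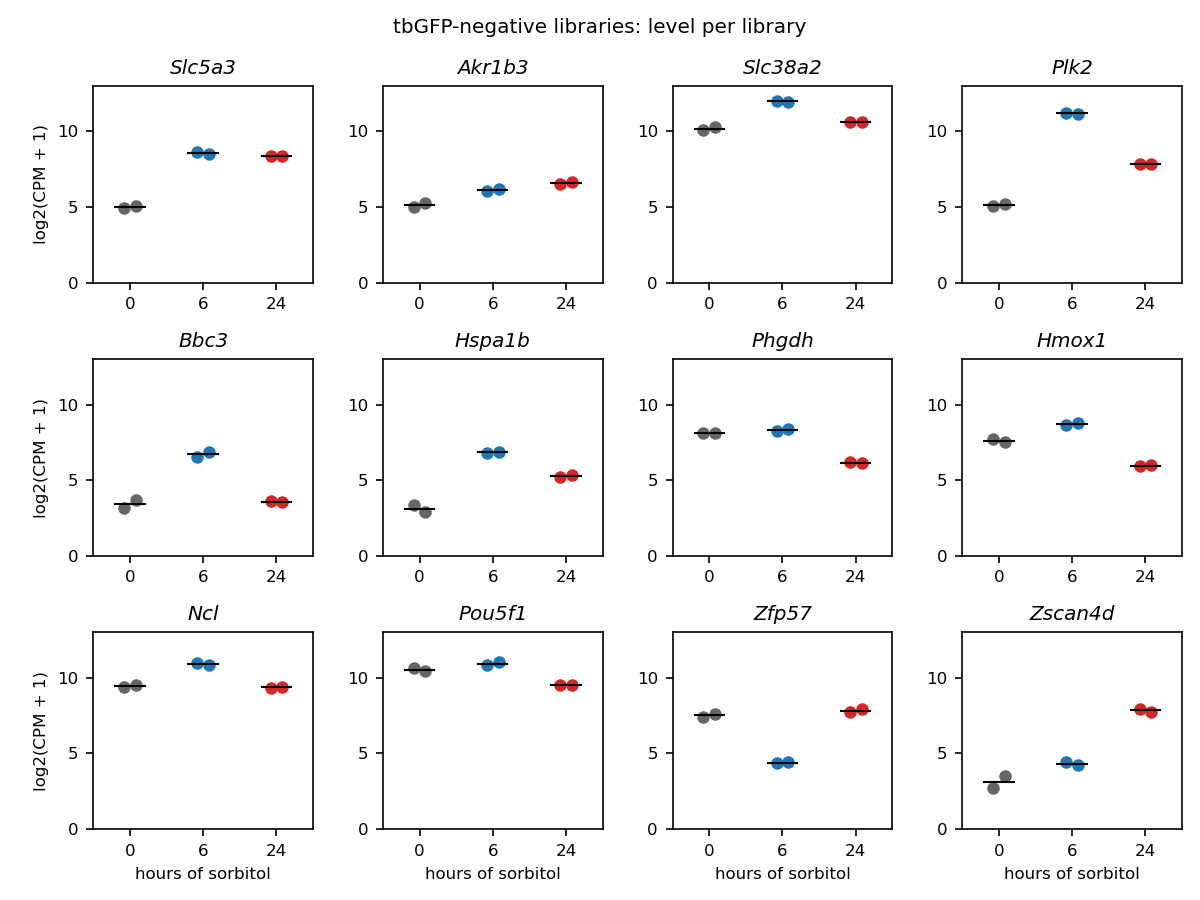
Level of 12 genes in each tbGFP-negative library, as log2(CPM + 1) on the vertical axis against hours of sorbitol. Points are libraries and lines are the mean of 2. Slc5a3 stays up at 24 h, Plk2, Bbc3 and Slc38a2 come down from a peak at 6 h, Phgdh falls only after 6 h, Zfp57 dips at 6 h, and Zscan4d is highest at 24 h.

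Most p53 targets peaked at 6 h and came down by 24 h. Of 26 tested targets, 22 rose by 6 h (14.8% of all genes rose), with a median log2 fold change of 2.06. From 6 h to 24 h 20 fell and 1 rose (18.1% and 16.3% of all genes), with a median of -1.43. With library totals alone 2 were higher and 17 lower, with a median of -0.96. Of the 22 that had risen, 18 fell again, and at 24 h 11 members were still above 0 h and 3 below by the test. 

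Plk2, a polo-like kinase, was at 31.9 and 35.8 CPM (0 h), 2401 and 2277 CPM (6 h), and 226 and 229.6 CPM (24 h). It rose most of the list by 6 h (6.09 ± 0.12, adjusted p = 9.02e-28) and fell by 24 h (-3.36 ± 0.10, adjusted p = 5.16e-22), when both libraries still lay above 0 h. Cdkn1a, the CDK inhibitor p21, was at 0 and 0.777 CPM (0 h), 35.2 and 41.4 CPM (6 h), and 5.72 and 6.33 CPM (24 h). Its 24 h libraries lay between the other groups and the fall had a log2 fold change of -2.67 ± 0.31, adjusted p = 2.59e-08, or -1.21, adjusted p = 0.212 over protein-coding transcripts alone. Mdm2, the ubiquitin ligase that holds p53 down, fell from 114 ± 1.78 to 35.5 ± 1.94 CPM (-1.68 ± 0.17, adjusted p = 1.2e-09), with 87.7% to 98.3% of its counts on intron-retaining transcripts. Sesn2, a stress-induced regulator of mTORC1 that is also an ATF4 target, fell from 2216 ± 386 to 375 ± 3.83 CPM, below its 590.0 ± 41.6 CPM at 0 h (-0.65 ± 0.10, adjusted p = 1.37e-05 for 24 h against 0 h). Eda2r, a TNF receptor family member, fell from 2146 ± 300.5 to 652 ± 38.3 CPM and stayed above 0 h.

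A few targets did not follow. Perp, a membrane protein of p53-induced apoptosis, rose again from 121 ± 7.13 to 193 ± 11.2 CPM (0.68 ± 0.13, adjusted p = 9.83e-05), after 19.8 ± 0.771 at 0 h. Btg2, an antiproliferative gene, was at 79.5 ± 8.78 CPM at 0 h, 519.6 ± 50 at 6 h and 414 ± 5.03 at 24 h. Its small fall after 6 h (-0.33 ± 0.11, adjusted p = 0.0193) turned to 0.14, adjusted p = 0.334 with library totals alone, and its call was lost without replicate 2 at 6 h (adjusted p = 0.145), or replicate 1 at 24 h (adjusted p = 0.14), or replicate 2 at 24 h (adjusted p = 0.186). Ccnd1, cyclin D1, is listed with p53 targets but did not pass by 6 h and fell late, at 170.2 and 165 CPM (0 h), 160.4 and 147 CPM (6 h), and 30.7 and 36 CPM (24 h) (-2.21 ± 0.14, adjusted p = 4.07e-14).

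Some genes of the BCL2 family, which decides on cell death at mitochondria, also fell after 6 h. Bbc3 and Bax are on the p53 list as well. Of 10 tested members, 4 rose by 6 h (14.8% of all genes) and 5 fell from 6 h to 24 h (18.1% of all genes). The median of that fall was -0.33 and turned positive with library totals alone (1 higher and 3 lower, with a median of 0.14). For the BCL2 family the falls numbered 3 without replicate 2 at 6 h or replicate 1 at 24 h. Bbc3, the BH3-only protein PUMA, was at 7.87 and 11.9 CPM (0 h), 93.6 and 116 CPM (6 h), and 11.1 and 10.8 CPM (24 h). The 24 h libraries lay within the range of those at 0 h, a full return from the peak (-3.26 ± 0.21, adjusted p = 4.34e-14). Mcl1, a pro-survival member, fell from 3207 ± 153 to 1695 ± 73.4 CPM and Bax from 53.6 ± 7.44 to 24.5 ± 0.0803. Bcl2l11, the BH3-only protein BIM, fell less, from 84.7 ± 10.8 to 62.6 ± 5.5 CPM, and stayed above its 23.7 ± 3.84 CPM at 0 h. That fall turned to 0.037, adjusted p = 0.883 with library totals alone, and its call was lost without replicate 2 at 6 h (adjusted p = 0.275), or replicate 1 at 24 h (adjusted p = 0.101), or replicate 2 at 24 h (adjusted p = 0.311). Hrk, another BH3-only gene, did not pass by 6 h and fell late (-1.22 ± 0.39, adjusted p = 0.0146), a call lost without replicate 2 at 6 h (adjusted p = 0.151), or replicate 1 at 24 h (adjusted p = 0.166).

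Early response genes and chaperones named here mostly peaked at 6 h, with exceptions in each list. Of 17 tested immediate-early genes, 6 fell and 3 rose after 6 h (18.1% and 16.3% of all genes), with a median of -0.29. With library totals alone 6 were higher and 4 lower, and the median turned positive, at 0.17.  Junb, an AP-1 subunit, was at 126 and 74 CPM (0 h), 407 and 417 CPM (6 h), and 102 and 102 CPM (24 h), back in the range of 0 h (-2.02 ± 0.16, adjusted p = 5.64e-09). Ier5 fell from 225 ± 5.21 to 42.7 ± 2.7 CPM, Ier2 from 301 ± 11.2 to 158 ± 8.41, and Dusp2, a phosphatase of MAP kinases, from 40 ± 2.71 to 2.52 ± 1.09. Fos, another AP-1 subunit, stayed up at 19.2 and 12 CPM (0 h), 51.8 and 47 CPM (6 h), and 65.5 and 60.9 CPM (24 h) (0.35 ± 0.19, adjusted p = 0.143).

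Of 14 tested heat shock genes, 6 rose by 6 h (14.8% of all genes). From 6 h to 24 h 8 fell and 2 rose (18.1% and 16.3% of all genes), with a median of -0.71. With library totals alone the split turned to 6 higher and 5 lower, with a median of -0.24. For heat shock genes the rises numbered none without replicate 1 at 6 h, 1 without replicate 2 at 24 h. The inducible HSP70 genes Hspa1a and Hspa1b, near-identical copies whose reads may be shared, peaked at 6 h. Hspa1b was at 9.19 and 6.48 CPM (0 h), 111 and 115 CPM (6 h), and 36.4 and 39.2 CPM (24 h), still above 0 h at the end (-1.58 ± 0.17, adjusted p = 4.1e-09). Hsp90ab1, the constitutive HSP90, fell from 5121 ± 269 to 2203 ± 133 CPM, below its 3049 ± 301 CPM at 0 h. The mitochondrial chaperonin genes Hspd1 and Hspe1, which lie head to head and share a promoter, fell together, with log2 fold changes of -0.82 ± 0.082, adjusted p = 1.25e-09 and -0.64 ± 0.12, adjusted p = 5.31e-05. The heat shock element searched on both strands has 3 alternating GAA and TTC units, each separated by a pair of bases. It is in 0.466% of 32851 RefSeq windows of 250 bases before a gene start, and before 0.514% of 27025 genes. Of 11 list members with a promoter sequence 2, Hspd1 and Hspe1, held it. Their matches are reverse complements of each other, so 1 stretch of the shared promoter was counted for both genes. The 250 bases before the Hspe1 start (RefSeq, GRCm38.p6, chr1:55087898-55088147, plus strand) are shown with the element in capitals, where 2 matches overlap.
Hspe1: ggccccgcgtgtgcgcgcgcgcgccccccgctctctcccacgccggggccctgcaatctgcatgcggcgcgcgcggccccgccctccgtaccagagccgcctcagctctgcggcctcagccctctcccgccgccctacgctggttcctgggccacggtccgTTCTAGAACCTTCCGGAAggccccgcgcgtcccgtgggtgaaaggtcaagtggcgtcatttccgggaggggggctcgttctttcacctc

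Amino acid stress genes took another course. Of the ATF4 targets tested, 6 did not pass by 6 h and then fell below both earlier times, and 4 had already fallen by 6 h. ATF4, the transcription factor of the integrated stress response, drives genes for serine synthesis, amino acid import and tRNA charging through composite C/EBP-ATF elements. Of 17 tested ATF4 targets, 1 rose and 4 fell by 6 h (14.8% and 11.4% of all genes). From 6 h to 24 h 1 rose and 11 fell (16.3% and 18.1% of all genes), with a median of -1.37. With library totals alone 1 was higher and 9 were lower, with a median of -0.90. At 24 h 12 were below 0 h by the test (9.66% of all genes). For ATF4 targets the rises numbered none without replicate 1 at 6 h or replicate 1 at 24 h.

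Phgdh, the first enzyme of serine synthesis, was at 282 and 280.1 CPM (0 h), 309 and 333 CPM (6 h), and 71.1 and 69.1 CPM (24 h). The groups at 0 h and 6 h were close, and both 24 h libraries lay far below them (-2.19 ± 0.12, adjusted p = 1.02e-15). Psat1, the next enzyme of that pathway, fell from 65.5 ± 7.82 to 15.3 ± 5.25 CPM and Mthfd2, of mitochondrial folate metabolism, from 152 ± 3.3 to 38.9 ± 2.49. Cth, which makes cysteine from cystathionine, fell from 319 ± 33.3 to 116 ± 0.00826 CPM. Chac1, which degrades glutathione, fell in both intervals, at 141 and 110.0 CPM (0 h), 22 and 22.8 CPM (6 h), and 6.71 and 3.91 CPM (24 h) (-2.05 ± 0.24, adjusted p = 3.12e-08 from 6 h). Trib3, a pseudokinase that feeds back on ATF4, went from 123 ± 15.9 to 80.4 ± 14.5 and 31 ± 3.96 CPM. The exception was Shmt2, a mitochondrial serine hydroxymethyltransferase, which rose from 0.861 ± 0.426 to 3.96 ± 0.46 CPM at a low level, with all its counts on intron-retaining transcripts. Its call was lost without replicate 1 at 6 h (adjusted p = 0.146), or replicate 1 at 24 h (adjusted p = 0.0943). Atf4 itself had few counts and no call, at 4.19 ± 0.651 and 3.58 ± 0.685 CPM, with 50% to 96.7% of its counts on intron-retaining transcripts.

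**Figure D3:**
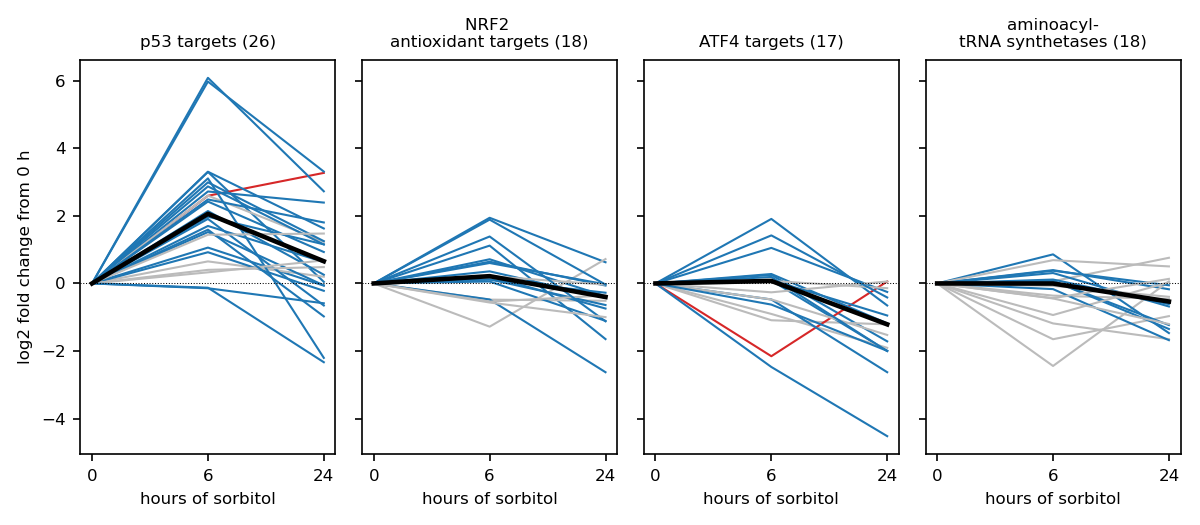
Fitted log2 fold change from 0 h (vertical axis) of the tested members of 4 gene lists against hours of sorbitol, 1 line per gene. Blue lines fell and red lines rose from 6 h to 24 h, gray lines did not pass, and the black line is the list's median. The p53 targets peak at 6 h, and the median of the ATF4 targets is near 0 at 6 h and negative at 24 h.

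Several genes that charge tRNAs with amino acids fell in the same interval. Of 18 tested cytosolic synthetases, 4 rose and 2 fell by 6 h (14.8% and 11.4% of all genes). From 6 h to 24 h 8 fell (18.1% of all genes), with a median of -0.45. That median turned positive with library totals alone (3 higher and 6 lower, with a median of 0.027).  Aars, for alanine, was at 1214 and 1145 CPM (0 h), 971 and 1129 CPM (6 h), and 394 and 342 CPM (24 h). The 24 h libraries lay well below all others (-1.51 ± 0.10, adjusted p = 1.86e-13). Gars, for glycine, fell from 1651 ± 21.5 to 668 ± 33.1 CPM, Yars, for tyrosine, from 256 ± 12.6 to 95.2 ± 1.51, and Cars, for cysteine, from 59.6 ± 1.13 to 11.8 ± 1.99 after an early rise, with 63.3% to 75.2% of its counts on intron-retaining transcripts. The members with fewer counts, such as Vars at 0.419 ± 0.0651 and 2.48 ± 1.64 CPM, mostly had no call, and 75% to 90% of the counts of Vars lay on intron-retaining transcripts.

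The C/EBP-ATF response element searched, TGATGNAA on both strands, is in 3.45% of the same 32851 windows and before 3.91% of 27025 genes. It was found for 4 of 15 ATF4 targets with a promoter sequence (Asns, Chac1, Slc7a11 and Vldlr) and 3 of 11 synthetases (Aars, Gars and Tars). Among these, 9 ATF4 targets fell after 6 h and 2 of them held it, and 5 synthetases fell and 2 held it. Asns, Vldlr and Tars held it without a called fall, so the element did not mark the genes that fell. Those shown were chosen among genes that fell after 6 h, as the 250 bases before the start in RefSeq's GRCm38.p6, with the element in capitals, and a match is a description of the sequence. They lie at chr3:50443614-50443863, minus strand for Slc7a11, the cystine importer, chr2:119350992-119351241, plus strand for Chac1 and chr8:111033592-111033841, plus strand for Aars. The Slc7a11 promoter holds 2 matches in opposite directions, and in Chac1 and Aars the match reads on the other strand.
Slc7a11: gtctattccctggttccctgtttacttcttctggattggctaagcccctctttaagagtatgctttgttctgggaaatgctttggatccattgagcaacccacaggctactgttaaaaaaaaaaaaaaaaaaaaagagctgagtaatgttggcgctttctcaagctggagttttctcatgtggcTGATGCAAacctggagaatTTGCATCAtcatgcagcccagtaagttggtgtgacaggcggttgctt
Chac1: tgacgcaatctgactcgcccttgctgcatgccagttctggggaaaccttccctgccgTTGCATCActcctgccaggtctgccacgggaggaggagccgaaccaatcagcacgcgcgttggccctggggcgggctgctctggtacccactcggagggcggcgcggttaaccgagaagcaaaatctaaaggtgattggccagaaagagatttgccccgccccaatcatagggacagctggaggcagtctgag
Aars: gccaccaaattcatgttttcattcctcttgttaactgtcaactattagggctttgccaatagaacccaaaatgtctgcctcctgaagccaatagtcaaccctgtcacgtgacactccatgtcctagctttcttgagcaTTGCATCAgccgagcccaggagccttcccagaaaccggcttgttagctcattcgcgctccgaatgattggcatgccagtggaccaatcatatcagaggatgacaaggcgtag

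Antioxidant genes fell after 6 h. NRF2 drives them when electrophiles or oxidants disable its inhibitor KEAP1. Of 18 tested targets, 6 rose and 1 fell by 6 h (14.8% and 11.4% of all genes). From 6 h to 24 h 13 fell (18.1% of all genes), with a median of -0.77. With library totals alone 1 was higher and 4 were lower, with a median of -0.30.  Hmox1, heme oxygenase, was at 207 and 181 CPM (0 h), 394 and 446 CPM (6 h), and 61.1 and 62.1 CPM (24 h). It was highest at 6 h and at 24 h both libraries lay below both at 0 h (-2.77 ± 0.12, adjusted p = 1.08e-17 from 6 h, -1.65 ± 0.12, adjusted p = 3.15e-12 from 0 h). Gclc, the catalytic subunit of glutathione synthesis, peaked at 6 h and returned to the level at 0 h, at 126 and 112 CPM (0 h), 425 and 452 CPM (6 h), and 117 and 115 CPM (24 h) (-1.92 ± 0.12, adjusted p = 1.43e-14). Txn1, thioredoxin, and Prdx1, a peroxiredoxin, made the same course on a smaller scale, with falls of -0.63 ± 0.094, adjusted p = 2.45e-06 and -0.70 ± 0.10, adjusted p = 2.27e-06. Slc7a11, which is on both lists, fell from 8.47 ± 1.46 to 1.91 ± 0.531 CPM.

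Many ribosome biogenesis genes rose by 6 h and many fell after it. Of 23 tested ribosome biogenesis genes, 13 rose and 1 fell by 6 h (14.8% and 11.4% of all genes). After 6 h 15 fell (18.1% of all genes), with a median of -0.41. This direction was lost with library totals alone (3 higher and 3 lower, with a median of 0.057).  Ncl, nucleolin, was at 675 and 738 CPM (0 h), 1980.1 and 1845 CPM (6 h), and 645.1 and 668 CPM (24 h), highest at 6 h and at 24 h just below both libraries of 0 h (-1.54 ± 0.094, adjusted p = 1.81e-14). Npm1, nucleophosmin, fell from 1154 ± 31.5 to 445 ± 6.9 CPM, below its 609.8 ± 30.9 at 0 h. Rrn3, an initiation factor of RNA polymerase I, and Fbl, the rRNA methyltransferase fibrillarin, had log2 fold changes of -0.63 ± 0.088, adjusted p = 7.72e-07 and -0.65 ± 0.11, adjusted p = 2.15e-05, back to a level that did not pass the test against 0 h.

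Ribosomal protein genes were mixed: 6 of 61 rose and 15 fell after 6 h (16.3% and 18.1% of all genes), with a median of -0.093. With library totals alone 20 were higher and 5 lower, and the median turned positive, at 0.38. Over protein-coding transcripts alone, 43 were tested, none rose and 10 fell, with a median of -0.324. For ribosomal protein genes the rises numbered 1 without replicate 1 at 6 h, 3 without replicate 1 at 24 h. Rpl36 fell from 1601 ± 86.6 to 772 ± 33.5 CPM and Rplp0 from 1152 ± 89.8 to 696 ± 27.6. Rpl30, with 94.1% to 96% of its counts on intron-retaining transcripts, fell from 191 ± 32.8 to 58.8 ± 7.16 CPM, and over protein-coding transcripts alone did not pass (-1.002, adjusted p = 0.121).

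Genes that carry snoRNAs in their introns and splicing genes moved in both directions after 6 h. Of 10 tested snoRNA hosts 3 rose and 5 fell (16.3% and 18.1% of all genes), with a median of -0.27. With library totals alone 4 were higher and 5 lower, and the median turned positive, at 0.20. For snoRNA hosts the rises numbered none without replicate 1 at 6 h, 1 without replicate 2 at 24 h. Snhg14, the host of the Snord115 and Snord116 clusters, was at 35.9 and 42.9 CPM (0 h), 201 and 206 CPM (6 h), and 49.5 and 60.9 CPM (24 h), and Gas5, with nearly all counts on intron-retaining transcripts, at 81.8 and 84.2 CPM (0 h), 317 and 302 CPM (6 h), and 139.8 and 131 CPM (24 h). Both were highest at 6 h and still above 0 h at 24 h (-1.88 ± 0.14, adjusted p = 2.79e-12 and -1.19 ± 0.12, adjusted p = 1.04e-09 from 6 h). Of 21 SR proteins and CLK kinases, 5 rose and 6 fell (16.3% and 18.1% of all genes), with a median of -0.02. With library totals alone 9 were higher and 2 lower, and the median turned positive, at 0.45. Over protein-coding transcripts alone, 15 were tested, none rose and 6 fell, with a median of -0.2. For splicing genes the rises numbered 3 without replicate 1 at 6 h or replicate 2 at 24 h, 1 without replicate 2 at 6 h, 2 without replicate 1 at 24 h. Srsf6, an SR splicing factor, was at 264 and 257 CPM (0 h), 895 and 786 CPM (6 h), and 230.0 and 209 CPM (24 h), a peak at 6 h that was gone at 24 h (-1.94 ± 0.11, adjusted p = 2.37e-15). Clk2, a kinase of SR proteins read mostly on intron-retaining transcripts, went the other way, from 4.84 ± 0.272 to 17.7 ± 3.54 CPM (1.87 ± 0.34, adjusted p = 5.6e-05), and over protein-coding transcripts alone did not pass (2.08, adjusted p = 0.057).

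The pluripotency genes split after 6 h. Of 25 tested naive pluripotency genes, 11 rose and 8 fell (16.3% and 18.1% of all genes), with a median of 0.24. With library totals alone 14 were higher and 3 lower, with a median of 0.71.  Pou5f1, which encodes OCT4, was at 1604 and 1369.5 CPM (0 h), 1828 and 2091 CPM (6 h), and 720.4 and 721 CPM (24 h). Both 24 h libraries lay below every other library (-1.44 ± 0.10, adjusted p = 1.59e-13). Nr0b1, a partner of OCT4 and NANOG, fell from 947 ± 12.6 to 391 ± 45.2 CPM, and Fgf4 and Utf1, both known OCT4 and SOX2 targets, had log2 fold changes of -0.90 and -0.76 and fell. The call of Utf1 was lost without replicate 1 at 6 h (adjusted p = 0.162), or replicate 2 at 6 h (adjusted p = 0.154), or replicate 1 at 24 h (adjusted p = 0.059). Sox2 rose instead, at 559 and 461 CPM (0 h), 436 and 453 CPM (6 h), and 743 and 768 CPM (24 h), with both 24 h libraries above all others (0.77 ± 0.10, adjusted p = 5e-07). Nanog rose from 10.7 ± 1.27 to 24 ± 2.47 CPM (1.16 ± 0.28, adjusted p = 0.00127), Tfcp2l1, a naive-state factor downstream of LIF, from 1243 ± 9.41 to 1827 ± 36.4 CPM, and Tbx3 from 8.45 ± 2.19 to 39 ± 4.34, with most Tbx3 counts on intron-retaining transcripts. Klf4 had risen by 6 h and stayed at 345 ± 23.9 CPM (0.13 ± 0.11, adjusted p = 0.399).

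Several pluripotency genes fell early and rose again. Zfp57, a zinc finger protein that protects imprints, was at 171 and 195 CPM (0 h), 19.8 and 20.2 CPM (6 h), and 212 and 245 CPM (24 h), lowest at 6 h and at 24 h above both libraries of 0 h (3.51 ± 0.15, adjusted p = 3.02e-18). Spry4, a feedback inhibitor of FGF signalling, recovered from 187 ± 20.5 to 402 ± 34.1 CPM, short of its 529 ± 5.47 at 0 h (-0.40 ± 0.11, adjusted p = 0.00821), and Klf2 from 54.8 ± 9.25 to 111 ± 1.52, short of 246 ± 23.1. Foxd3 recovered from 17.3 ± 3.85 to 45.6 ± 0.235 CPM against 95.2 ± 9.51 at 0 h. Zic2, a factor of the exit from naive pluripotency, fell in both intervals, at 133 and 106 CPM (0 h), 33.8 and 47.7 CPM (6 h), and 15.7 and 16.2 CPM (24 h) (-1.34 ± 0.19, adjusted p = 1.34e-06), as did its relative Zic5 (-1.44 ± 0.23, adjusted p = 8.1e-06 from 6 h). Of 18 tested formative and primed genes 3 rose and 7 fell (16.3% and 18.1% of all genes), with a median of -0.12. With library totals alone 5 were higher and 5 lower, and the median turned positive, at 0.35. For formative genes the falls numbered 4 without replicate 2 at 6 h or replicate 1 at 24 h.

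Imprinted noncoding RNAs and methylation genes moved in both directions. Of 16 tested members 5 rose and 5 fell (16.3% and 18.1% of all genes), with a median of -0.049. With library totals alone 5 were higher and 2 lower, and the median turned positive, at 0.42. For the methylation list the median was 0.14 without replicate 1 at 24 h. Rian, a maternally expressed RNA of the Dlk1-Dio3 domain, was at 126 and 148 CPM (0 h), 776 and 602 CPM (6 h), and 169 and 150.5 CPM (24 h), a peak at 6 h (-2.11 ± 0.12, adjusted p = 7.1e-15). Meg3, at the same domain, fell instead over both intervals, from 279 ± 4.01 to 209 ± 60 and 111 ± 13.3 CPM (-0.92 ± 0.14, adjusted p = 1.14e-05 from 6 h). Kcnq1ot1, a paternally expressed antisense RNA, rose from 564 ± 4.76 to 957 ± 109.7 CPM after an early fall. Tet2, which oxidises methylcytosine, was at 49 and 52.9 CPM (0 h), 6.15 and 4.88 CPM (6 h), and 42.7 and 38.8 CPM (24 h), lowest at 6 h (2.87 ± 0.25, adjusted p = 5.78e-11), and 87% to 97.1% of its counts lay on intron-retaining transcripts. Dnmt1, Dnmt3a and Dnmt3b had under 10 CPM on average at each time and no call, and the counts of Dnmt1 and Dnmt3b lay almost all on intron-retaining transcripts.

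Genes of the 2-cell program rose in the tbGFP-negative cells, mostly after 6 h. Of 28 tested members (of 44 on the list), 15 rose and 1 fell by 6 h (14.8% and 11.4% of all genes). From 6 h to 24 h 21 rose and 3 fell (16.3% and 18.1% of all genes). The median was 2.91, or 2.87 with Tcstv3, absent at 6 h, set at its bound. With library totals alone 22 were higher and 3 lower, with a median of 3.37.  Zscan4d (ENSMUSG00000090714.10, chr7:11161374-11166159, minus strand, GRCm38), a DNA-binding factor of the 2-cell embryo, was at 5.69 and 10.4 CPM (0 h), 20.3 and 17.4 CPM (6 h), and 248 and 217 CPM (24 h). The groups did not overlap and the 24 h libraries stood far above 6 h (3.62 ± 0.18, adjusted p = 8.09e-17). Gm8300, a gene like the translation factor gene Eif1a, was at 3.06 and 4.79 CPM (0 h), 13.8 and 11.6 CPM (6 h), and 153 and 133 CPM (24 h) (3.48 ± 0.19, adjusted p = 2.16e-15). Zscan4f rose from 8.05 ± 1.1 to 109 ± 10.8 CPM and Zscan4c from 14.8 ± 6.48 to 215 ± 7.61. These families have near-identical copies, so the split of reads among copies is uncertain.

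Single-copy members rose as well, at lower levels. Arg2, a mitochondrial arginase, rose from 2.84 ± 0.729 to 20.4 ± 3.58 CPM and Rdh1, a retinol dehydrogenase, from 1.63 ± 0.332 to 7.2 ± 3.34. The call of Rdh1 was lost without replicate 1 at 6 h (adjusted p = 0.0554), or replicate 2 at 6 h (adjusted p = 0.0825), or replicate 2 at 24 h (adjusted p = 0.26). Duxf3, which encodes the activator DUX, had 23 counts at 6 h and 20 at 24 h and no call (-0.97 ± 0.99, adjusted p = 0.479). Members below the filter were not tested. Exceptions were Ddit4l, an inhibitor of mTORC1, which fell from 79.4 ± 11.7 to 32.2 ± 1.36 CPM after an early rise from 8.24 ± 1.95, Zfp750, which fell from 106 ± 17.9 to 15.8 ± 0.567 CPM, and Slc34a2, a phosphate transporter, which fell from 7.66 ± 1.34 to 0.379 ± 0.226. As CPM without TMM factors, the tbGFP-negative level of Zfp750 was 141%, 255% and 159% of the tbGFP-positive level at 0, 6 and 24 h. These data thus do not bear out its place on the 2-cell list.

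Those of these genes that were abundant in tbGFP-positive cells reached a small share of that level in tbGFP-negative cells of the same time. Choosing genes by their level in tbGFP-positive cells favours a small share. Among members left out by that choice, Zfp750 was at 159% and Dppa2 at 76.4% at 24 h. The others left out were at 1.5% (Slc34a2) to 5.92% (Spz1). For 21 members with at least 100 CPM in tbGFP-positive cells at every time, as CPM without TMM factors, the tbGFP-negative level was a median 0.0822% of the tbGFP-positive level at 0 h, 0.237% at 6 h and 3.52% at 24 h. At 24 h the quartiles over the genes were 2.84% and 4.38%, the lowest value was Dcc at 1.27% and the highest Ddit4l at 11.9%, which had been at 39.3% at 6 h. A few cells with the full program within the tbGFP-negative gate and a low level in many cells cannot be told apart in these sums.

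**Figure D4:**
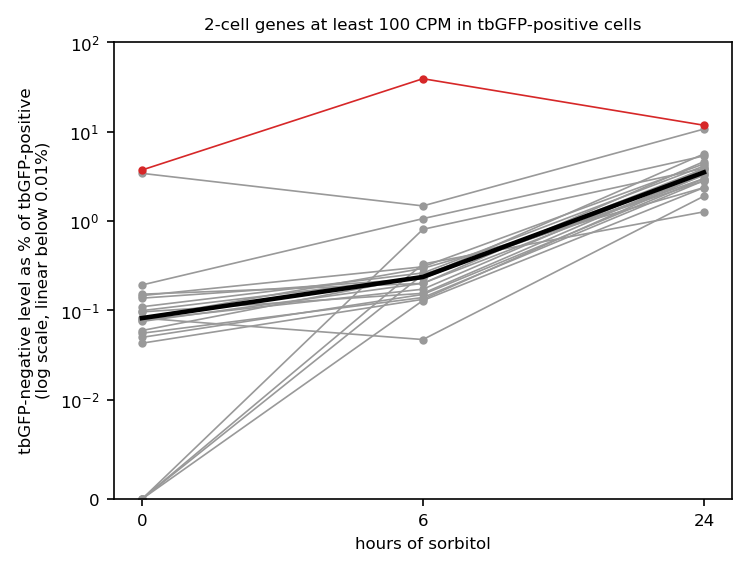
Level in tbGFP-negative cells as a percentage of that in tbGFP-positive cells of the same time (vertical axis, log scale, linear below 0.01%) for 21 genes of the 2-cell program against hours of sorbitol, 1 line per gene. The genes had at least 100 CPM in tbGFP-positive cells at every time. The black line is the median, which rises from 0.0822% to 0.237% and 3.52%, and the red line is Ddit4l.

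Of 28 tested regulators that hold the 2-cell program down 6 rose and 5 fell, near the shares over all genes (16.3% and 18.1%), with a median of 0.077. With library totals alone 12 were higher and 4 lower, with a median of 0.55. Over protein-coding transcripts alone, 18 were tested, 2 rose and 5 fell, with a median of -0.211.  Lin28a, an RNA-binding protein, was at 1292 and 1268 CPM (0 h), 1775 and 1764 CPM (6 h), and 558 and 542 CPM (24 h), lower at 24 h than in any other library (-1.69 ± 0.092, adjusted p = 1.18e-15). Rybp, of Polycomb complexes, and Hdac1, a histone deacetylase, fell, with log2 fold changes of -0.84 and -0.95.

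Lipid synthesis showed a late fall of the desaturases. Scd2 and Scd1, which put the double bond into stearate and palmitate, did not pass by 6 h and then fell. Scd2 was at 1476 and 1542 CPM (0 h), 1483 and 1456 CPM (6 h), and 355 and 417 CPM (24 h) (-1.93 ± 0.10, adjusted p = 2.01e-16), with both 24 h libraries far below the rest. Scd1 went from 504 ± 42.4 to 125 ± 1.96 CPM (-2.01 ± 0.11, adjusted p = 1.94e-15). Srebf2, the transcription factor of cholesterol synthesis, fell from 58.5 ± 8.95 to 21.4 ± 0.531 CPM, and Insig1, which holds SREBP in the endoplasmic reticulum, from 231 ± 4.82 to 94.3 ± 11.8. Of 30 tested genes of the list 6 rose and 11 fell (16.3% and 18.1% of all genes), with a median of -0.17. With library totals alone 8 were higher and 7 lower, and the median turned positive, at 0.31. For sterol and lipid genes the rises numbered 2 without replicate 1 at 6 h. For sterol and lipid genes the median was 0.13 without replicate 1 at 6 h.

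Glycolysis genes split: of 25, 7 rose and 8 fell (16.3% and 18.1% of all genes), with a median of -0.15. With library totals alone 9 were higher and 1 lower, and the median turned positive, at 0.33. For glycolysis genes the rises numbered 3 without replicate 1 at 6 h, 4 without replicate 2 at 24 h. For glycolysis genes the falls numbered 3 without replicate 1 at 24 h or replicate 2 at 24 h. For glycolysis genes the median was 0.34 without replicate 2 at 6 h. Pdk1, a pyruvate dehydrogenase kinase, rose late from 68.9 ± 8.02 to 149 ± 8.3 CPM, and Egln3, an oxygen-dependent prolyl hydroxylase, fell late from 164 ± 7.44 to 60.6 ± 0.978. Of 11 mitochondrial mRNAs 5 fell after 6 h (18.1% of all genes), with a median of -0.53 (2 lower, with a median of -0.045 with library totals alone). The 6 h libraries decide its size: the median was -0.16 without replicate 1 at 6 h and -0.82 without replicate 2 at 6 h. For mitochondrial mRNAs the falls numbered 10 without replicate 2 at 6 h. The cytochrome b gene mt-Cytb was at 4456 and 3838 CPM (0 h), 5296 and 3748 CPM (6 h), and 2202 and 2366 CPM (24 h). Both 24 h libraries were below the others, and the 6 h libraries lay far apart (-0.99 ± 0.14, adjusted p = 0.000144).

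More replication and mitosis genes fell than rose, a split that turned or levelled with the scaling. Of 28 tested S phase genes 8 rose and 11 fell (16.3% and 18.1% of all genes), while the median, 0.15, was positive. With library totals alone 10 were higher and 5 lower, with a median of 0.62. Over protein-coding transcripts alone, 17 were tested, 2 rose and 11 fell, and the median turned negative, at -0.623. For S phase genes the rises numbered 4 without replicate 1 at 6 h, 5 without replicate 2 at 6 h or replicate 1 at 24 h, 3 without replicate 2 at 24 h. For S phase genes the median was -0.039 without replicate 1 at 6 h, -0.14 without replicate 2 at 24 h. Those with many counts fell: Pola1, the catalytic subunit of DNA polymerase alpha, from 1583 ± 176 to 714 ± 18.7 CPM (-1.15 ± 0.095, adjusted p = 1.92e-11), Pcna, the sliding clamp, from 294 ± 54.8 to 129 ± 8.62, and the helicase genes Mcm4 and Mcm7 with log2 fold changes of -1.03 and -0.91. Of 24 G2 and mitosis genes 14 fell and 2 rose (18.1% and 16.3% of all genes), with a median of -0.29. That median turned positive with library totals alone (4 higher and 4 lower, with a median of 0.19). For mitosis genes the falls numbered 7 without replicate 1 at 24 h or replicate 2 at 24 h. Top2a, topoisomerase II, fell from 3561 ± 340.5 to 1952 ± 44.8 CPM and Hmmr from 1946 ± 157 to 1067 ± 29.4, back to the 1058 ± 37.3 CPM of 0 h. Cenpa, the centromeric histone, rose from 33.1 ± 0.896 to 85.6 ± 0.835 CPM, mostly on intron-retaining transcripts, and not over protein-coding transcripts alone (0.27, adjusted p = 0.589).

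Among 15 tested G1 regulators 2 rose and 6 fell (16.3% and 18.1% of all genes), with a median of -0.44. With library totals alone 5 were higher and 3 lower, and the median turned positive, at 0.031. For G1 regulators the rises numbered 1 without replicate 1 at 6 h, none without replicate 2 at 6 h or replicate 1 at 24 h or replicate 2 at 24 h. Besides Ccnd1, Ccnd2 fell in both intervals, at 20.6 and 16.1 CPM (0 h), 6.53 and 9.3 CPM (6 h), and 1.76 and 0.943 CPM (24 h) (-2.50 ± 0.46, adjusted p = 6.33e-05), and Cdkn2b, the CDK4 and CDK6 inhibitor p15, fell from 55.4 ± 5.83 to 30.1 ± 2.43 CPM and stayed above 9.32 ± 4.76 at 0 h. The call of Cdkn2b was lost without replicate 2 at 6 h (adjusted p = 0.0532), or replicate 1 at 24 h (adjusted p = 0.0525). In the ATR and DNA repair list 4 of 26 rose and 3 fell, no more than over all genes (16.3% and 18.1%), with a median of 0.074 (10 higher, with a median of 0.55 with library totals alone).  Atr, the checkpoint kinase, was at 12.7 and 14.9 CPM (0 h), 2.8 and 1.86 CPM (6 h), and 19.2 and 18.9 CPM (24 h), lowest at 6 h (3.00 ± 0.38, adjusted p = 1.28e-07), with nearly all its counts on intron-retaining transcripts. Of 25 replication histone genes 2 rose and 8 fell (16.3% and 18.1% of all genes), with a median of -0.47. With library totals alone 6 were higher and 4 lower, and the median turned positive, at 0.0036. For replication histones the rises numbered 1 without replicate 2 at 6 h or replicate 1 at 24 h. For replication histones the falls numbered 15 without replicate 1 at 0 h or replicate 2 at 0 h, 4 without replicate 1 at 6 h. Hist1h1a, a linker histone, fell from 4223 ± 126 to 2303 ± 125 CPM, and Hist3h2a, whose mRNA was late to rise, went from 8.27 ± 1.5 to 45.5 ± 7.26 (2.45 ± 0.26, adjusted p = 6.27e-09).

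Of 19 tested genes of the cytoskeleton and SRF targets 5 rose and 4 fell, near the shares over all genes (16.3% and 18.1%), with a median of -0.09 (5 higher and 3 lower, with a median of 0.38 with library totals alone, where the median turned positive). For cytoskeletal genes the rises numbered 1 without replicate 2 at 6 h, 2 without replicate 2 at 24 h. For cytoskeletal genes the median was 0.14 without replicate 2 at 6 h. S100a10, an annexin partner, rose in both intervals, at 21.9 and 25.6 CPM (0 h), 39.7 and 34.6 CPM (6 h), and 76.5 and 80.6 CPM (24 h) (1.07 ± 0.17, adjusted p = 9.93e-06), and Tagln2 fell from 256 ± 6.92 to 110.1 ± 1.65 CPM. Krt8, a simple keratin, rose by 6 h and persisted at 40.3 ± 3.63 CPM. Of 21 autophagy and lysosome genes 1 rose and 5 fell (16.3% and 18.1% of all genes), with a median of -0.20. With library totals alone 4 were higher and 1 lower, and the median turned positive, at 0.27. For lysosomal genes the rises numbered none without replicate 1 at 6 h or replicate 2 at 24 h. For lysosomal genes the falls numbered 2 without replicate 1 at 6 h or replicate 2 at 24 h, 3 without replicate 2 at 6 h or replicate 1 at 24 h. Of 12 tested primitive endoderm markers 2 rose and 4 fell (16.3% and 18.1% of all genes), with a median of -0.54. With library totals alone 2 were higher and 4 lower, with a median of -0.073. Of these markers Lama1, a laminin chain, rose from 167 ± 14.6 to 313 ± 8.56 CPM. Outside that list Kdr, a VEGF receptor, rose from 3.59 ± 0.467 to 18.3 ± 1.14 CPM and Eomes, a T-box factor, from 2.86 ± 1.75 to 9.55 ± 2.31. The call of Eomes was lost without replicate 2 at 6 h (adjusted p = 0.211), or replicate 2 at 24 h (adjusted p = 0.168). For primitive endoderm markers the rises numbered 1 without replicate 1 at 6 h or replicate 1 at 24 h or replicate 2 at 24 h. For primitive endoderm markers the falls numbered 2 without replicate 1 at 6 h or replicate 2 at 6 h. For primitive endoderm markers the median was 0.44 without replicate 2 at 6 h and 0.165 over protein-coding transcripts alone.

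The largest changes from 6 h to 24 h, by the rule for named genes, were of genes with low counts at one of the times. Among the 8 largest rises were the 2-cell genes Tdpoz4, Tdpoz3 and AU015836, with Gas7, an actin regulator, at 14 and 8.29 CPM (0 h), 5.41 and 4.88 CPM (6 h), and 99.7 and 85 CPM (24 h) (4.16 ± 0.25, adjusted p = 1.43e-14). Tdpoz4 had 2 counts over both 6 h libraries and 325 over both at 24 h, or 95.1 times as much (26.1 to 788, 95% counting interval). Mmp28, a matrix metalloproteinase, was a late rise to 10.3 ± 0.356 CPM from 0.466 ± 0.659. Fam92a, Xlr3a and Trim26 complete the 8, and Trim26, Xlr3a, Med15 and Mum1 were the steepest early falls that came back. Intron-retaining transcripts held 98.8% to 100.0% of the counts of Trim26, at 16.2 and 17.7 CPM (0 h), 1.49 and 0 CPM (6 h), and 17 and 14.1 CPM (24 h). At 24 h they also held most counts of the other 4, Fam92a among them. Over protein-coding transcripts alone these 5 had too few counts to be tested. Cdx1, a caudal homeobox gene, rose late, from 1.4 ± 0.661 to 22.1 ± 4.02 CPM (3.93 ± 0.47, adjusted p = 4.55e-08).

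The largest falls were of genes that had risen by 6 h, several of them from near 0. Dll1, a Notch ligand, was at 19.7 and 11.1 CPM (0 h), 108 and 99.5 CPM (6 h), and 4.18 and 4.31 CPM (24 h), highest at 6 h and below 0 h at 24 h (-4.61 ± 0.24, adjusted p = 5.12e-16). Rnu12, an RNA of the minor spliceosome, was at 17.1 and 10.2 CPM (0 h), 91 and 75.6 CPM (6 h), and 3.85 and 2.42 CPM (24 h), with the same order (-4.70 ± 0.27, adjusted p = 4.96e-15). C3, of complement, reached 25.8 ± 2.98 CPM at 6 h and fell to 0.636 ± 0.434, from 2 counts over both libraries at 0 h. Cyp2c65, a cytochrome P450, had no count at 0 h, 27 ± 2.29 CPM at 6 h and 0.844 ± 0.0503 at 24 h. Acta1, skeletal muscle actin, Neb, nebulin, Tmem190 and Nme2, a nucleoside diphosphate kinase, were at 11.7 ± 3.57, 13.7 ± 0.667, 13.5 ± 2.25 and 11.3 ± 3.81 CPM at 6 h and all under 1 CPM in the 24 h libraries. Intron-retaining transcripts held 20% to 71.4% of the counts of Tmem190. Tph2, a tryptophan hydroxylase, and Tlr13, a Toll-like receptor, were at 48.9 ± 2.48 and 28.9 ± 0.541 CPM at 6 h and 4.79 ± 2.4 and 2.76 ± 0.289 at 24 h.

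The strongest persisting rises, besides Slc5a3, were of Sdc4, Mrps6 and Snord116l11. Sdc4, a heparan sulfate proteoglycan, was at 60.8 and 72.4 CPM (0 h), 537 and 604 CPM (6 h), and 532 and 529 CPM (24 h), with 24 h below 6 h by less than the test could call (-0.10 ± 0.11, adjusted p = 0.482); with library totals alone it was 0.36, adjusted p = 0.013. Mrps6 is annotated over the same locus as Slc5a3, so its reads may be shared. Persisting falls included Pck2, mitochondrial PEPCK and a known ATF4 target, at 17.9 and 21.9 CPM (0 h), 1.49 and 2.09 CPM (6 h), and 4.84 and 1.75 CPM (24 h), and Mycn, at 14.4 and 20.7 CPM (0 h), 3.17 and 3.72 CPM (6 h), and 6.71 and 4.31 CPM (24 h). Both had all sorbitol libraries below both at 0 h, and 12.3% to 59.5% of the counts of Pck2 lay on intron-retaining transcripts, most at 0 h. Ccdc63 and Enox1, read mostly on intron-retaining transcripts, had 6 h and 24 h means of 1.91 ± 0.589 and 4.4 ± 1.4, and 2.26 ± 1.55 and 3.14 ± 0.706 CPM. That these falls persisted depends on the scaling. Library totals alone gave a rise from 6 h to 24 h for Pck2 (1.38, adjusted p = 0.0418), Mycn (1.16, adjusted p = 0.0343) and Ccdc63 (1.68, adjusted p = 0.0109). Ccdc63 also rose with the filter of at least 30 counts (1.23, adjusted p = 0.0494). The steepest late falls were of Vax2os, Ubap1l, Prss50 and Adm2, a peptide hormone of the adrenomedullin family. Adm2 was at 11.4 and 14.8 CPM (0 h), 15.8 and 13.9 CPM (6 h), and 1.54 and 1.89 CPM (24 h), level to 6 h and then low in both libraries (-3.12 ± 0.41, adjusted p = 2.19e-07).

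The step from 6 h to 24 h differed between the sorted fractions for 185 genes, 0.954% of 19384, of which 126 had the higher log2 fold change in tbGFP-negative cells and 59 the lower. This count rests on the tbGFP-positive libraries at 6 h: it was 1488 without replicate 1 and 2689 without replicate 2 of that group, and 78 to 107 without any 1 of the other 6 libraries. Zscan4d changed by -0.21 ± 0.17 in tbGFP-positive cells, a difference of 3.90 ± 0.26, adjusted p = 1.32e-06. Cells were sorted on a reporter of 2-cell genes, so a difference of such a gene between fractions is not independent of the sort. Hmox1 changed by -0.87 ± 0.20 there and fell in tbGFP-negative cells, a difference of -1.83 ± 0.28, adjusted p = 0.00279. The difference was -2.15 ± 0.30, adjusted p = 0.00141 for Ddit4l, -1.23 ± 0.23, adjusted p = 0.0162 for Gas5, -2.20 ± 0.42, adjusted p = 0.0185 for Dll1 and -1.12 ± 0.23, adjusted p = 0.0278 for Hsp90ab1. No difference passed for Slc5a3 (0.081 ± 0.31, adjusted p = 0.955), Plk2 (-1.29 ± 0.65, adjusted p = 0.375), Phgdh (-1.25 ± 0.34, adjusted p = 0.12) or Pou5f1 (-0.92 ± 0.38, adjusted p = 0.283), which does not show that the fractions changed alike.

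**Figure D5:**
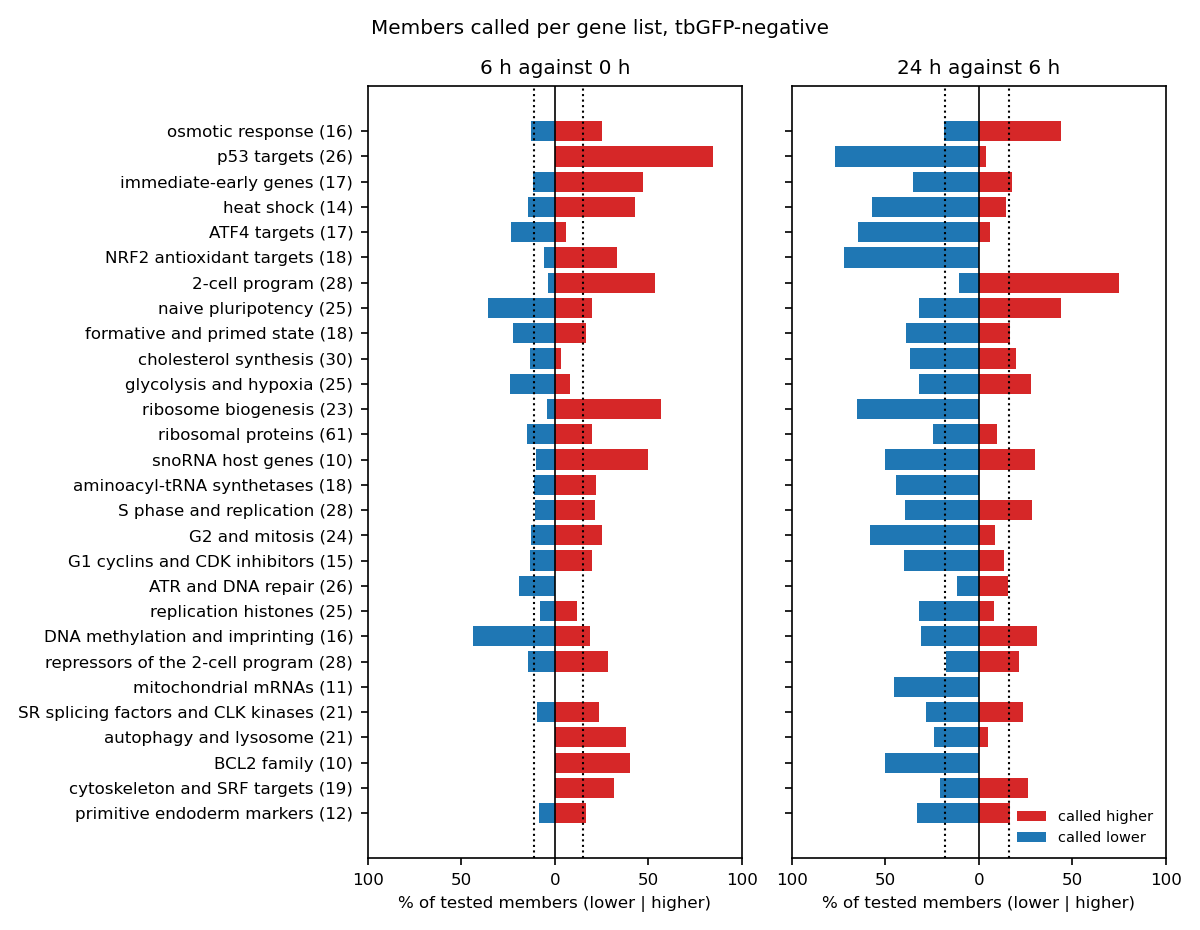
Share of tested members called lower (left of 0) and higher (right of 0) for 28 gene lists with at least 10 tested members, at 6 h against 0 h and at 24 h against 6 h, with the number tested in brackets. Dotted lines give the shares over all 16597 genes. The p53 and ribosome biogenesis lists are mostly higher at 6 h and lower after it, and the 2-cell list is mostly higher in the second interval.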

How the data were processed

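The 12 libraries are total RNA of sorted cells. Per the labels' protocols, the authors sorted cells by fluorescence, made stranded total RNA libraries and deposited 1 table of raw counts per transcript and sample. The submitters' processing notes name FastQC, HISAT2, featureCounts and DESeq2. How reads that overlap several transcripts or lie on either strand were counted is not given in the sources used here, so antisense and overlapping genes may share reads.

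Of 142446 transcripts, 141536 matched a GENCODE M21 gene by Ensembl identifier, and counts were summed to 55266 genes. Transcript counts were deposited where gene counts had been assumed, and the test kept is the same. The test was edgeR 4.0.16 quasi-likelihood with TMM factors, R 4.3.3, on the 6 tbGFP-negative libraries, for 16597 genes with at least 10 counts in at least 2 of them. P-values were adjusted by the Benjamini-Hochberg method. The difference between fractions used all 12. DESeq2 1.42.0, other scalings and filters, the replicate block and leaving out each library were alternatives. On simulated data for 24 h against 6 h (15236 genes, 200 of them changed), the test called 47% of genes changed 2-fold, 92% of those changed 4-fold and 5 unchanged genes. In that simulation as many genes went up as down and all libraries otherwise had a common mean profile. It therefore does not show how many false calls arise where many genes change and the TMM factors differ between times, as in these data. Intervals and floors cover counting error only.

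Members and gene lists were chosen with earlier results of these data known. Named genes are the 8 largest rises and falls among called genes with at least 10 CPM and groups that do not overlap, the 4 largest of each fate class, up to 4 called members of each list by adjusted p, and a panel. Other list members in the text were named after their values were seen. A gene of the panel is not reported here.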

Additional observations from a re-analysis of the deposited data

Results flagged for a closer look

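The step from 6 h to 24 h differed between tbGFP-negative and tbGFP-positive cells by edgeR's interaction test for 15 of the named genes, given as the log2 fold change in tbGFP-negative cells minus that in tbGFP-positive cells. Among genes of the 2-cell program the difference was 3.90 for Zscan4d (adjusted p = 1.32e-06), 3.60 for Gm8300, 3.58 for Gm5662, 4.08 for Zscan4f and 4.07 for Zscan4c. It was 4.60 for Tdpoz4, 3.74 for Tdpoz3 and 3.26 for AU015836. All 8 have near-identical copies or low counts at 6 h. Because the sort used a reporter of 2-cell genes, these 8 differences are not independent of it. Gas7, an actin regulator, differed by 2.23 (adjusted p = 0.0285).

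The other 6 genes fell more, or rose less, in tbGFP-negative cells. The difference was -2.15 for Ddit4l (adjusted p = 0.00141), -1.83 for Hmox1, -2.20 for Dll1, -1.23 for Gas5, -1.12 for Hsp90ab1 and -0.925 for Hmmr (adjusted p = 0.0462). These tests include the tbGFP-positive libraries at 6 h, and the number of genes that differ is 185 with both, 1488 without replicate 1 and 2689 without replicate 2 of that group. The part of those libraries in each difference was not tested.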

How the results depend on the processing

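Of 172 named genes called at 24 h against 6 h, 112 kept their call under every alternative that could be fitted and 60 lost it under at least 1, 53 of them with all 12 libraries in the fit. With library totals alone 6 log2 fold changes turned, to 0.36 for Sdc4, 0.031 for Ccne1, 0.16 for mt-Nd4, 0.12 for Lamp1, 0.14 for Btg2 and 0.037 for Bcl2l11. With 12 libraries the calls were 1534 (701 higher, 833 lower) at 24 h against 6 h, 860 (625 and 235) at 6 h against 0 h and 773 (523 and 250) at 24 h against 0 h. The classes up and down then held 316 and 133 reversed, 92 and 26 persisted, 24 and 5 continued, 193 and 71 unresolved, and 273 and 143 late. The common spread in that fit was larger. With library totals alone 5088 were higher and 1353 lower at 24 h against 6 h, 1473 and 3198 at 6 h against 0 h, 1010 lower at 24 h against 0 h, 677 and 2382 reversed, and 1022 and 316 late. DESeq2 gave 748 reversed down, 42 and 61 continued and 371 late up. At least 30 counts left 231 early rises unresolved. The cause of these moves was not tested.

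Leaving out 1 library gave calls of 3724 to 6364 at 24 h against 6 h (1634 to 3133 higher, 2090 to 3231 lower), 2915 to 3966 at 6 h against 0 h (1595 to 2235 higher, 1308 to 1767 lower) and 1809 to 3252 at 24 h against 0 h (804 to 1538 higher, 999 to 1714 lower). The classes up and down ranged over 1009 to 1445 and 756 to 1155 reversed, 270 to 311 and 205 to 299 persisted, 38 to 68 and 58 to 87 continued, 200 to 730 and 193 to 598 unresolved, 249 to 532 and 459 to 708 late. The difference between fractions ranged over 78 to 2689 genes (60 to 808 higher, 13 to 1881 lower). For the difference between fractions, library totals gave 230 higher and 32 lower, DESeq2 503 (276 and 227) and no filter 605 (251 and 354).

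The replicate block gave 5529 calls at 24 h against 6 h and changed no call of a named gene. Deviations of same-numbered libraries were not correlated across genes (r = 0.0086, -0.0022 and -0.0070 for the 3 pairs of times). With 2 libraries per group noise can hide a shared part, so this cannot decide whether the numbers pair the libraries. Genes with few counts on spliced transcripts limit what the depth can show.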
